A study of Mus musculus with 2 samples.

Results

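Gars, the gene for glycyl-tRNA synthetase, was followed in ribosome profiling libraries of mouse spinal cord. It is 1 of 12530 mouse genes listed in both libraries, and was taken as the row with identifier ENSMUSG00000029777. Animals with 1 copy of the C201R missense allele (Gars C201R/+, HET) were compared with wild-type animals (WT). Each genotype had 1 library, made after the spinal cord lysates of 3 animals had been combined, so the values hold no spread between animals. The sources used here do not give age, sex or strain. The C201R allele is a germline change, so all cells of the tissue carry it. The 2 libraries held 3491159 gene reads (HET) and 7770935 gene reads (WT).

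Glycyl-tRNA synthetase attaches glycine to its tRNAs before they are used by the ribosome. In mammals the same nuclear gene supplies the enzyme to the cytosol and to mitochondria. Dominant missense changes in it cause an inherited neuropathy of motor and sensory axons, an axonal form of Charcot-Marie-Tooth disease. Gars is also counted among the synthetase genes that the transcription factor ATF4 can switch on when amino acids are short or tRNAs stay uncharged.

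In the RefSeq annotation of GRCm38.p6, Gars lies on the forward strand at chr6:55038001-55079504, a span of 41504 nt with introns. The table lists 0 genes that overlap this span. The next gene downstream is Crhr2, a receptor of the corticotropin-releasing hormone family, 10543 nt away, and the next protein-coding gene upstream is Ggct, 45040 nt away. In this annotation no antisense gene could therefore add reads to Gars, whatever the strand setting of the counting. The annotation behind the deposited counts was not given and was not checked for overlaps. Near-identical copies elsewhere in the genome were not checked. The gene length behind the deposited RPKM was 2380 nt, shorter than the median of 3092 nt over all listed genes. Divided by 3 it leaves a remainder of 1, so it is not the length of a coding sequence alone. How much of it lies outside the coding sequence was not determined, so RPKM levels and ranks depend on that annotated length.

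The stretch just before the annotated start is printed because ATF4 is known to act on synthetase genes through promoter elements, and capitals mark a match to the consensus of elements bound by ATF4 with a C/EBP partner. It covers chr6:55037751-55038000 (GRCm38.p6, forward strand, from RefSeq, 5′ to 3′).
Gars: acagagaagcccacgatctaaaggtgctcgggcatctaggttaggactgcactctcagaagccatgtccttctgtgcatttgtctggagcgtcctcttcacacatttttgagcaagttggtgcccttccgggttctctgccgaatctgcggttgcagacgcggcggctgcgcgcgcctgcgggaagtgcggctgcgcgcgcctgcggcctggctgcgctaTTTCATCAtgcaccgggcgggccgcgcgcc
The motif searched was TGATGNAA on both strands, with N for any base, chosen with this sequence in view. The 1 match reads TGATGAAA on the reverse strand, at chr6:55037971-55037978, and ends 22 nt before the start. Of 32851 promoter windows of the same length, 1134 (3.45%) held a match. The Gars window was 62.4% G and C, against a median of 52.4% over all windows, and held 24 CpG dinucleotides, against a median of 6. A match to these letters is a description of the sequence and no evidence that ATF4 was bound in these samples.

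Gars was a well covered gene in both genotypes. It had 1061 reads in the HET library (95% Poisson interval 998 to 1127) and 2555 reads in the WT library (2457 to 2656). As deposited, its level was 127 RPKM in the HET library (119 to 134) and 138 RPKM in the WT library (133 to 143). RPKM is the read number scaled to gene length and library size. The HET value was below the WT value, and their counting intervals overlapped slightly.

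The Gars level was far above that of a typical listed gene in both libraries, at 14.7 times the median RPKM of all listed genes in HET and 16.4 times in WT. By reads, without scaling to gene length, it stood at 11.1 times the median in HET and 12.4 times in WT. No listed entry was without reads, so these medians leave out genes that were not detected. By RPKM it ranked 470 of 12530 genes in the HET library and 434 in the WT library, above 96.2% and 96.5% of them. By reads it ranked 541 in HET and 492 in WT. It took 0.0304% of the gene reads in HET (exact binomial interval 0.0286% to 0.0323%) and 0.0329% in WT (0.0316% to 0.0342%). The ranks need no scaling between the libraries, and both were slightly lower in the list in HET. The highest gene stood at 5446 RPKM in HET and 4815 RPKM in WT, so Gars was abundant without being among the top genes.

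**Figure D1:**
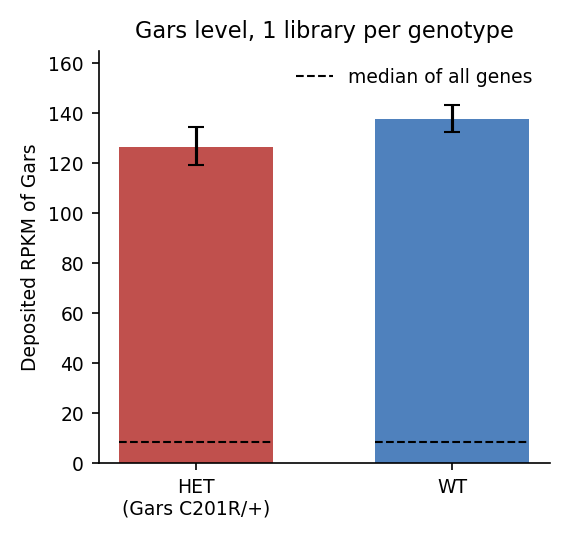
Deposited RPKM of Gars in the HET and the WT library. Error bars are 95% Poisson intervals of the read count, covering counting error only, and dashed lines are the median RPKM of all listed genes. The bars stand at 127 RPKM in HET and 138 RPKM in WT, far above the dashed lines.

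**Figure D2:**
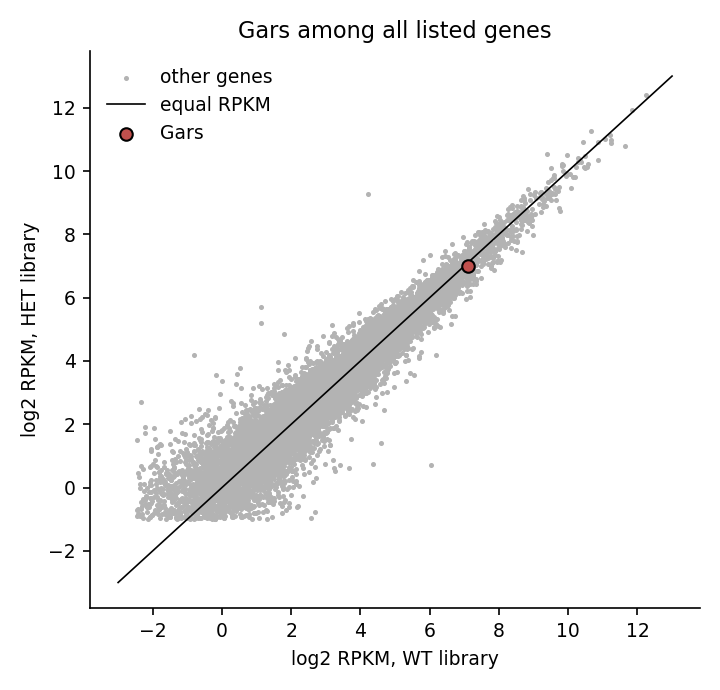
Level of every listed gene in the HET library (log2 RPKM, vertical) against the WT library (log2 RPKM, horizontal), 1 point per gene. Gars, in red, lies near the upper end of the cloud and close to the line of equal RPKM.

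The HET library showed a slightly lower Gars level than the WT library, by a margin that was small beside the differences among other genes. After TMM scaling the level was 298 CPM, reads scaled to library size, in HET (95% Poisson interval 281 to 317) and 335 CPM in WT (322 to 348). The log2 ratio of HET over WT was -0.17 (95% counting interval -0.27 to -0.06), a ratio of 0.891 (0.828 to 0.957). In reads, 1061 were counted in HET where a level equal to WT would have given 1191 at that depth. A ratio of 0.5 would have given 596 reads, and a level 1.5-fold lower would have given 794 reads. The whole counting interval of the ratio lay above both of these levels, but it holds no spread between animals or libraries. In this bulk tissue, fewer cells expressing a gene and less RNA per cell cannot be told apart. The series holds no RNA library here, so mRNA amount and ribosome loading cannot be told apart either. Gene totals also do not separate reads of the C201R allele from those of the wild-type allele.

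Gars was not among the genes that differed by 1.5-fold or more. A sum of at least 100 reads over the libraries was found for 9726 genes. Of these, 1887 (19.4%) passed that fold, 792 (8.14%) higher in HET and 1095 (11.3%) lower in HET. The balance of higher and lower genes changed with the settings, to 953 higher and 937 lower when scaled to total gene reads, 904 and 972 with upper-quartile scaling, and 1803 and 1602 under TMM with no read minimum. Over all listed entries, the lowest RPKM was 0.501 in HET and 0.183 in WT. Weak genes may therefore be listed unevenly, and the effect of this on the balance was not tested. The counting interval of Gars excluded equal levels, but so did that of 5050 genes (51.9%), 2741 of them on the lower side (28.2% of those tested) and 2309 on the higher side (23.7%). That property is therefore shared by most tested genes. With 1 library per genotype there is no replicate check, no p-value between genotypes was computed, and the intervals cover counting error alone.

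Set among all tested genes, the Gars ratio was an ordinary one. The median log2 ratio was -0.03 with a robust SD of 0.44, and 3685 of the 9726 genes (37.9%) had a lower ratio than Gars. Gars minus the median was -0.13 on the log2 scale, and 76.0% of genes were at least that far from it in either direction.

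Because weakly covered genes scatter more, Gars was also set beside the 312 genes within the same factor above and below it in reads summed over the libraries, 2901 to 4515 reads against 3616 for Gars. Their log2 ratios had a median of -0.07, a robust SD of 0.32 and a range of -1.08 to 0.63. Their quartiles were -0.30 and 0.14, and Gars lay between them. A lower ratio than that of Gars was found in 123 of them (39.4%). Gars minus their median was -0.10, a smaller distance than their robust SD. Counting error gave an SD of 0.05 at this depth, so the spread among these genes was wider than counting error. Among them 4 genes (1.28%) were at least 1.5-fold higher in HET and 20 genes (6.41%) at least 1.5-fold lower. The counting interval excluded equal levels for 238 (76.3%). These figures describe where Gars lies and are no test.

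**Figure D3:**
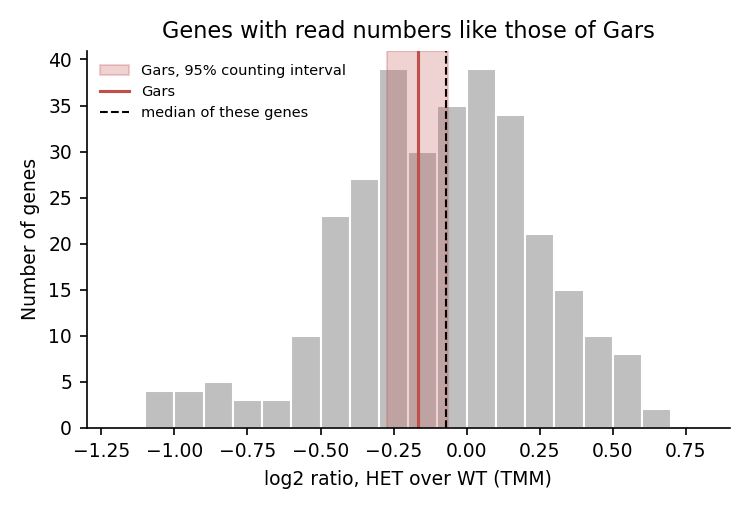
Number of genes by log2 ratio of HET over WT (TMM scaling) for the 312 genes with 2901 to 4515 summed reads. The red line at -0.17 is Gars with its 95% counting interval shaded, and the dashed line at -0.07 is the median of these genes, inside the same central part of the distribution.

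The size of the Gars ratio, but not its sign, varied with how the libraries were scaled to each other. The log2 ratio was -0.11 (-0.22 to -0.01) with total gene reads, -0.13 (-0.23 to -0.02) with upper-quartile scaling and -0.17 (-0.27 to -0.07) with DESeq2 size factors. The deposited RPKM values as they stand gave -0.12 (-0.23 to -0.02). Gars minus the median tested gene was -0.13 under each of these scalings, since they move all genes by a common amount. The ERCC spike-ins, which are artificial RNAs added as external standards, differed widely between the libraries, with 22857 reads in HET and 520 reads in WT. Scaled to them, the log2 ratio of Gars was -6.72 and that of the median gene -6.58, a difference of -0.14. The labels do not say whether or in what amount spike-ins were added.

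**Figure D4:**
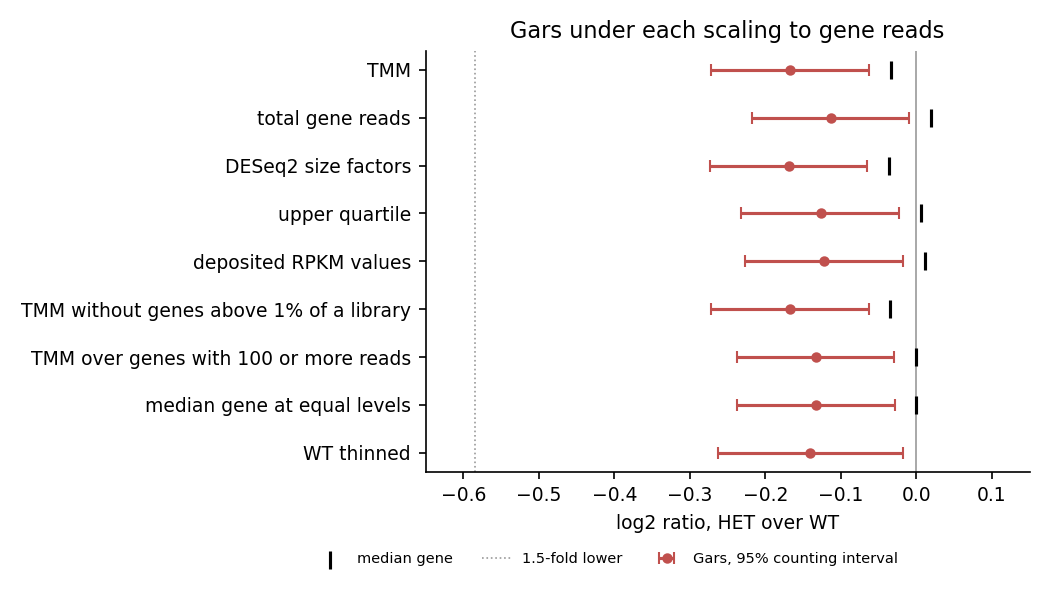
Log2 ratio of Gars, HET over WT, in red with its 95% counting interval. It is shown under each scaling other than the spike-ins, and with the WT library thinned to the HET depth. Black ticks are the median tested gene, with none drawn for the thinned library. The solid line is equal levels and the dotted line a 1.5-fold lower level in HET. All Gars points lie between -0.17 and -0.11, right of the dotted line.

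The genes nearest to Gars, by Euclidean distance over log2 RPKM in the 2 libraries, differed little from it in level or ratio, which follows from how they were picked. They are given by identifier, since the tables used here pair no other identifier with a symbol. ENSMUSG00000057880 had 129 RPKM in HET and 139 RPKM in WT, at a distance of 0.03, and a log2 ratio of -0.14. ENSMUSG00000096210 had 130 RPKM in HET and 139 RPKM in WT, at a distance of 0.04, and also a log2 ratio of -0.14. On the lower side, ENSMUSG00000044708 had 128 RPKM in HET and 142 RPKM in WT with a log2 ratio of -0.20, and ENSMUSG00000021737 had 123 RPKM in HET and 139 RPKM in WT with a log2 ratio of -0.22. The counting intervals of these 4 genes overlapped that of Gars, so their order along the ratio is not resolved.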

How the data were processed

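Per the labels' protocols, ribosome-protected fragments were released with RNase I from pooled lysates, size-selected and converted to cDNA. The submitters' processing notes list Bowtie 1.2.2, HTSeq 0.9.1 and GRCm38. Their settings, strand handling, rRNA removal and annotation release were not given in the sources used here. The authors deposited whole-number read counts, which were used unchanged, and RPKM values, which per the file headers stand beside them. Dividing reads by RPKM gave whole gene lengths, within 1e-06 nt, for totals of 3520348 reads (HET) and 7790126 reads (WT).

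The 18 spike-ins stayed out of the scaling. Libraries were scaled with TMM (edgeR 4.0.16, R 4.3.3). Log2 ratios carry a prior count of 0.5 per library, and ratio intervals are exact conditional binomial (Clopper-Pearson) at 95%. Reads may not be independent molecules, so intervals cover counting error only. The code was tested on simulated data. DESeq2 1.42.0 was used for size factors only. Other steps used scipy 1.17.1, pandas 2.3.3, numpy 2.4.6 and, for plots, matplotlib 3.10.9, under Python 3.11.15.

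Gars was chosen, and the gene lists and rules were written, with earlier results of these data known. Named genes were to be Gars, members of lists of synthetases, stress response, ribosome rescue and glycine supply, tissue markers, and the 5 genes nearest to Gars in log2 RPKM, of which at most 2 above and 2 below it in ratio are printed. The identifier of Gars was given with its symbol. In the reference table of 49997 genes 0 of the files' identifiers matched, so the lists and the check of the tissue by its markers were not analysed here. Promoter sequence came from RefSeq (GRCm38.p6), found by the symbol Gars.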

Additional observations from a re-analysis of the deposited data

Results flagged for a closer look

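The ERCC spike-ins, which lie outside the comparison of mouse genes, made up 0.650% of the listed reads in the HET library and 0.00669% in the WT library. Beside Gars, this was 21.5 spike-in reads per Gars read in HET and 0.204 in WT. Relative to the TMM-scaled gene reads the spike-ins together were 94.3-fold higher in HET (95% counting interval 86.4 to 103). The value of Gars against this scale is given with the scalings, and the cause of the spike-in difference was not tested.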

How the results depend on the processing

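The log2 ratio of Gars stayed between -0.17 and -0.11, inside its own counting interval, under the 10 alternatives other than the spike-ins: the other scalings to gene reads, the deposited RPKM values, TMM without genes above 1% of a library or over genes with 100 or more reads, thinning of the WT library (-0.14, with 1128 Gars reads left in WT), no prior count, a 99% interval, and, chosen after seeing the data, placing the median gene at equal levels. Of these, the 99% interval cannot change the ratio itself, and leaving out the prior count can hardly change it at this read number. Scaling to the ERCC spike-ins gave -6.72, by a factor common to all genes apart from the prior count, which is split by library size. Counts of genes 1.5-fold higher in HET moved to 1572 with a minimum of 20 reads, 1803 with none, 158 with a minimum of 500 and 166 at 2-fold. Counts of genes 1.5-fold lower were 1579, 1602, 348 and 267 under the same settings. By construction, a stricter fold or a higher read minimum cannot raise either count, and a lower read minimum cannot reduce it. Why the balance between higher and lower genes moved with the read minimum was not tested. DESeq2 size factors gave 789 genes higher and 1099 lower. The share of like-read genes below Gars was 37.3% and 39.8% for windows of 1.1-fold and 1.5-fold. It was 32.3% of 65 genes when length was also matched, a choice made after seeing the data. The alternatives for the gene lists were not run. No replicate could be left out. No paired analysis was possible because each genotype has 1 library. Depth limits the Gars ratio to a counting SE of 0.05 on the log2 scale, while variation between animals and libraries is not measured.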
